A study of Homo sapiens with 6 samples.

Results

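Metallothioneins were examined in RNA-seq libraries of U87MG cells, an established human glioblastoma line. The genes were the 6 listed as MT1E, MT1F, MT1G, MT1M, MT1X and MT2A, found by symbol in the deposited comparison table and by Entrez gene ID in the library tables. All 6 had a line in at least 1 library table, among 27257 genes that had one. The U87MG-control group (n = 3 libraries) had been exposed to a control lentivirus for 24 h and the U87MG-LMO2 group (n = 3 libraries) to a lentivirus carrying LMO2 for 24 h. LMO2 encodes a LIM-domain adaptor protein. Both groups were grown in the same serum-containing DMEM with penicillin-streptomycin, glutamine and gentamicin, and the labels name no metal, hormone or cytokine treatment. All libraries come from 1 cell line. The labels do not say what the control virus carried or whether the replicates were separate cultures, so the p-values measure the spread between these libraries, which may be technical.

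Metallothioneins are small cysteine-rich proteins that bind zinc and copper ions and, when cells are exposed to it, cadmium. In humans the genes lie side by side on chromosome 16, and MT2A and the MT1 group arose by duplication, so that their transcripts resemble each other. When free zinc rises, the zinc-finger factor MTF1 binds short sequences called metal response elements in the promoters of these genes and switches them on. Glucocorticoids, oxidants and cytokines that act through STAT3 are also known inducers, MT2A being the classical glucocorticoid-inducible member. In brain, metallothioneins of the MT1 and MT2 groups are made mainly by astrocytes, the cell type that gliomas resemble.

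In GENCODE v29 on GRCh38, 16 metallothionein genes and pseudogenes occupied 119.1 kb of chromosome 16, with 0 other protein-coding genes between them. The 6 genes spanned 76.0 kb of it. MT2A (4502) was first at chr16:56608199-56609497, followed by MT1E (4493) at chr16:56625475-56627112, MT1M (4499) at chr16:56632233-56633986 and MT1F (4494) at chr16:56657694-56660698. MT1G (4495) followed at chr16:56666731-56668065 and MT1X (4501) at chr16:56682424-56684196. MT1G was on the minus strand and the other 5 on the plus strand, and the first annotated transcript of each had 3 exons. Between the 6 genes lay MT1A, MT1B, MT1H and the pseudogenes MT1L, MT1JP, MT1DP, MT1CP and MT1IP.

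Promoter sequences from RefSeq (GRCh38.p14, 250 bases before to 50 after the RefSeq start) were held for 2 of the 6 genes, MT2A and MT1X. For both, the RefSeq start lies after the GENCODE start given above, and motif positions are counted from the RefSeq start. They are shown because metals are known to act on these genes through elements in the promoter, and they belong to the most abundant member and to the last one of the cluster. MT1H (4496), a neighbour with almost no counts here, is shown beside them as 1 example of a near-silent gene of the cluster. All are on the plus strand, MT2A at chr16:56608334-56608633, MT1X at chr16:56682220-56682519 and MT1H at chr16:56669564-56669863. Capitals mark matches to the core of the metal response element on either strand.
MT2A: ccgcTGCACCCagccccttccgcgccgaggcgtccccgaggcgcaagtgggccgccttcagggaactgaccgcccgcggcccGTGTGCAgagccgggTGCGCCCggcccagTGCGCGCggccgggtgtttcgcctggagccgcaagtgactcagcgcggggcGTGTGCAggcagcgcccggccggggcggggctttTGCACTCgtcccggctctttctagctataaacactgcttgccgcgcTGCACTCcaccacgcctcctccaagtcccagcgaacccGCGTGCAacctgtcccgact
MT1X: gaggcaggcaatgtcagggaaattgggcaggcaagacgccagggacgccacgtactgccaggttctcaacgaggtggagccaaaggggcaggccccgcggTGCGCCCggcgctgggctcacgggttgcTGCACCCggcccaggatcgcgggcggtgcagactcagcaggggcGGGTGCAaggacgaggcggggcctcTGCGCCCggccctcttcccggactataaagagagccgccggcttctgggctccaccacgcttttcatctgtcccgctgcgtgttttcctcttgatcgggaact
MT1H: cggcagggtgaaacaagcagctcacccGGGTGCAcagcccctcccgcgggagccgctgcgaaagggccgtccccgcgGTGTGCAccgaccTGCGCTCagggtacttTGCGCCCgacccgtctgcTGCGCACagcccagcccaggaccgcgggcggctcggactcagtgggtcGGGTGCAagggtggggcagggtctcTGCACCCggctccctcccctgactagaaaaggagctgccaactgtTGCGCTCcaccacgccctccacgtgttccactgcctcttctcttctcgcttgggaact

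The core was searched as TGCACNC or TGCGCNC on both strands. MT2A held 8 matches, which began at positions -246, -168, -153, -139, -88, -54, -8 and 30 from the start. MT1X held 4, at -150, -122, -78 and -53. MT1H also held 8 matches, so the number of matches was the same in the most abundant member and in a gene with at most 2 counts in a library. Of 35116 RefSeq promoters of the same length, 29.6% held at least 1 match, 2.30% at least 3 and 0.0740% at least 6. The letters TATAAA were at -29 in MT2A and at -30 in MT1X, were not found in this window of MT1H, and occurred in 11.5% of all promoters. MT2A also held 1 match to the AP-1 letters TGACTCA at -104 (4.95% of all promoters) and 1 to the STAT letters TTCNNNGAA at -194 (7.66%). Neither was in the windows of MT1X or MT1H. The GC-box letters GGGCGG occurred at 2 places in MT2A, at 2 in MT1X and at 1 in MT1H (15786 of the 35116 promoters), and 1 of the 2 in MT1X overlapped a metal response element match. No other motif overlapped one in these 3 promoters. MT1B (4490), which like MT1H had at most 2 counts in a library, held 3 metal response element matches, TATAAA at -30 and TGACTCA at -146, so the near-silent genes did not share 1 pattern of letters. These matches describe the letters only and were not tested for binding.

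The libraries held 11428432 to 13537284 expected counts in U87MG-control and 14630627 to 17892955 in U87MG-LMO2, so that every U87MG-LMO2 library was the deeper. LMO2 (4005), examined as a check of the labels, had 7, 11 and 5 counts in U87MG-control and 5459, 4503 and 14570 in U87MG-LMO2. Transcripts from the virus and from the cell's own LMO2 gene cannot be told apart in these counts. The part that depth had in the differences given here was not tested. Markers known from glioma lines were high, with VIM at 11039 and CD44 at 1157 CPM in U87MG-control (CPM, the count scaled to the library's size after TMM adjustment, as a mean of 3 libraries), whereas SOX2 and S100B were near 0 and OLIG2 was under 1 CPM. Of 11 markers of leukocytes, endothelium, epithelium, neurons and oligodendrocytes, 9 were under 1 CPM in both groups. PECAM1, an endothelial adhesion gene, was at 5.02 and 4.41 CPM and SNAP25, a synaptic gene, at 28.8 and 28.7 CPM in U87MG-control and U87MG-LMO2. The summed level of the 11 was 31.8 to 40.0 CPM in U87MG-control and 32.4 to 40.5 CPM in U87MG-LMO2. The summed level of the glioma-line markers was 14996 to 15854 CPM in U87MG-control and 16696 to 23831 CPM in U87MG-LMO2, without overlap. U87MG-LMO2 replicate 3 stood apart in it, with 9016 CPM of FN1 against 4337 and 3972 CPM in replicates 1 and 2, and 435.6 CPM of CHI3L1 against 101.5 and 86.5 CPM. The part of this library in the results was measured by leaving it out, and those values are given for MT2A and for the summed metallothionein level. The pathway lists read below held 15 calls with all 6 libraries and 22 without it. Calls over all genes rose as well, from 760 higher and 443 lower of 16092 to 1307 and 1102 of 16392, so the rise is not particular to the lists. Which genes of the lists were called only without replicate 3 is not given. In these bulk libraries, a change in the share of cells that make a transcript and a change in the RNA per cell cannot be told apart.

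Levels of different genes were compared in FPKM, which is scaled to transcript length. MT2A was among the most abundant transcripts of U87MG. It had 1600, 1822 and 1777 FPKM in the U87MG-control libraries and 2147, 2587 and 1974 FPKM in the U87MG-LMO2 libraries. It ranked between 22 and 25 among 27125 genes in U87MG-control and between 14 and 24 in U87MG-LMO2. MT1E was next, at 176.3, 220.9 and 206.6 FPKM in U87MG-control and 164.2, 187.8 and 175.6 FPKM in U87MG-LMO2. The mean FPKM of MT2A in U87MG-control was 8.61 times that of MT1E, which was in turn 8.92 times that of MT1X. MT1X was at 22.6 ± 0.698 FPKM (SD, n = 3) in U87MG-control, the pseudogene MT1L at 16.6 ± 2.45, MT1M at 10.9 ± 2.31 and MT1F at 2.29 ± 0.640.

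The order of the FPKM levels was thus MT2A, MT1E, MT1X, MT1L, MT1M and MT1F in both groups, and no neighbours in it overlapped within a group. Below MT1F, the levels overlapped from gene to gene. MT1IP, a pseudogene, was at 1.01 ± 0.401 FPKM in U87MG-control and 0.427 ± 0.222 FPKM in U87MG-LMO2 (SD, n = 3), from at most 5 counts in a library. MT1DP, MT1H, MT1B, MT1JP and MT3, the brain-type metallothionein, had at most 2.75 counts in any library. MT1G had 0 counts in 5 libraries and 1.41 counts in U87MG-LMO2 replicate 2. A library with 0 counts allows up to 3, for counting error only, so MT1G was at or under that limit in all 6 libraries and no fold change is given for it.

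**Figure D1:**
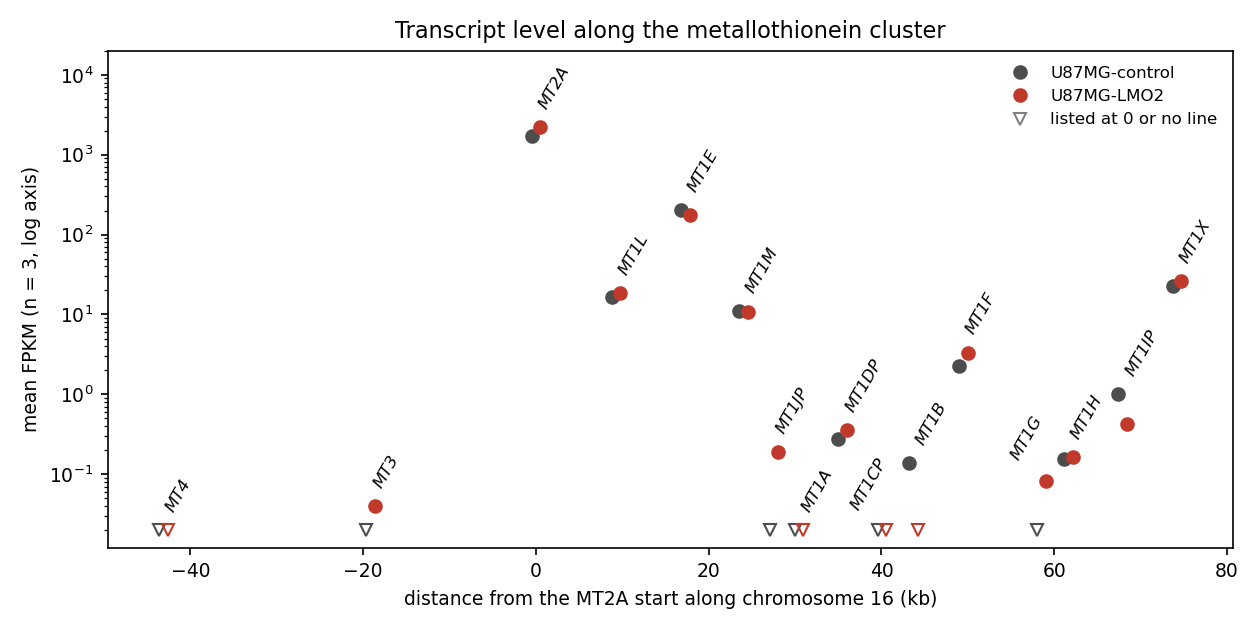
Mean FPKM (log axis, n = 3 libraries per group) of each metallothionein gene and pseudogene against the distance of its start from that of MT2A in kb; open triangles at the bottom mark genes with no count in that group. MT2A stands at 1733 and 2236 FPKM and MT1E at 201.3 and 175.8 FPKM in U87MG-control and U87MG-LMO2, while MT1G, MT1H and MT1B, in the same cluster, lie below 0.2 FPKM.

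The comparison of U87MG-LMO2 with U87MG-control asked whether metallothionein transcripts differ when LMO2 is overexpressed. Of the 6 genes, 5 passed the filter on low counts and MT1G did not. The edgeR quasi-likelihood test called 0 of the 5 at an adjusted p under 0.05, while 7.48% of the 16092 genes tested were called, 4.72% as higher and 2.75% as lower. At an unadjusted p under 0.05 it found 1 of the 5, MT2A. The share of all genes at that unadjusted level was not counted, so this says little about the members. DESeq2 called MT2A, but over all 16092 genes it called 1006 higher and 691 lower, against 760 and 443 with edgeR. MT2A, MT1X and MT1F were higher in every U87MG-LMO2 library than in every control, and MT1E and MT1M overlapped. Groups that did not overlap were found for 17.5% of all genes tested with the U87MG-LMO2 libraries higher and for 16.6% with them lower. The median log2 fold change of the 5 genes was 0.25, against -0.01 over all genes tested, whose quartiles were -0.23 and 0.24.

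MT2A, the most abundant isoform in most human cells, had 8009, 10802 and 10187 expected counts in U87MG-control replicates 1 to 3. It had 15165, 16568 and 15503 in U87MG-LMO2 replicates 1 to 3. Scaled to library size, these were 694.8, 788.9 and 770.9 CPM against 925.1, 1129 and 934.1 CPM. Every U87MG-LMO2 library was above every control, and replicate 2 of U87MG-LMO2 was the highest. The means were 751.5 ± 49.9 and 996.2 ± 115 CPM (SD, n = 3), a 1.33-fold difference with a 95% interval of 1.11 to 1.58. The log2 fold change was 0.41 (SE 0.11), with an unadjusted p of 0.00603 and an edgeR adjusted p of 0.0644, which did not pass the threshold. DESeq2 put the log2 fold change at 0.41 with an adjusted p of 0.0222. Without U87MG-LMO2 replicate 3 it was 0.45, with an edgeR adjusted p of 0.0149. The LMO2 transcript itself was highest in replicate 3 (333.0, 307.0 and 877.9 CPM), so the U87MG-LMO2 library with the most LMO2 was not the one with the most MT2A. Whether MT2A follows the level of LMO2 was not tested.

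**Figure D2:**
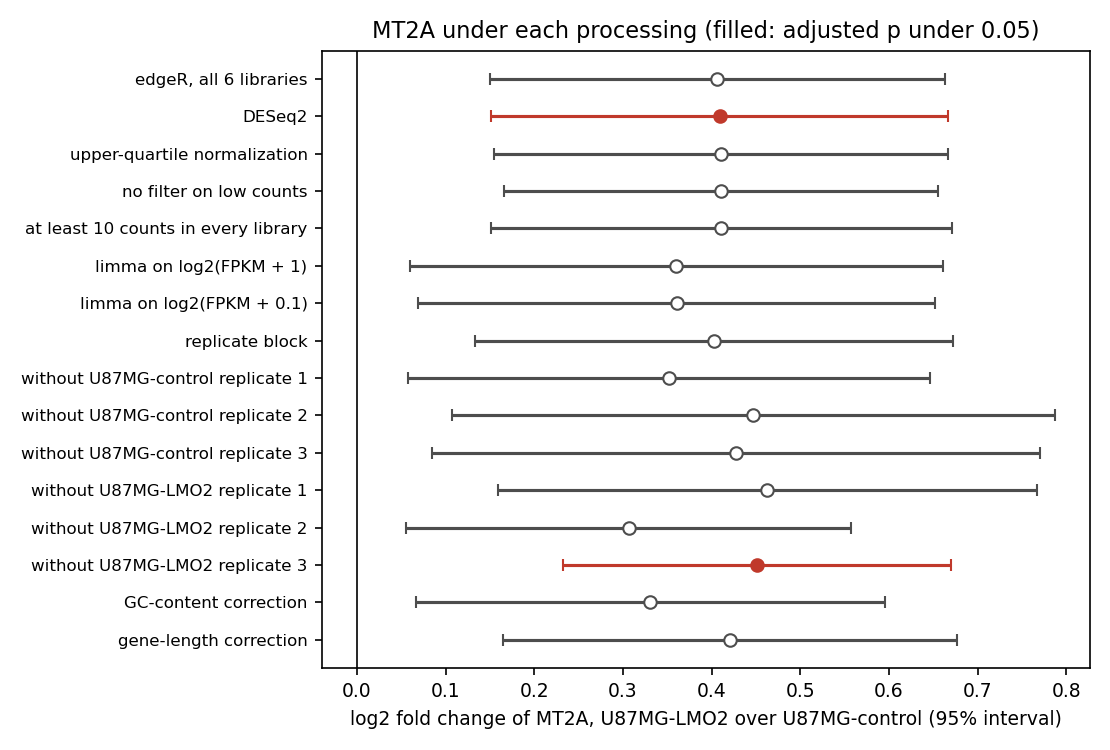
Log2 fold change of MT2A (x axis, point, with its 95% interval) under each way of processing the same libraries (y axis); filled points have an adjusted p under 0.05. All estimates lie between 0.31 and 0.46, and 2 of the 16, DESeq2 and the fit without U87MG-LMO2 replicate 3, are filled.

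MT1E, the second most abundant member, had 992.5, 1474 and 1332 counts in U87MG-control and 1306, 1356 and 1554 in U87MG-LMO2, or 86.1, 107.6 and 100.8 CPM against 79.7, 92.4 and 93.6 CPM. The groups overlapped, with U87MG-LMO2 replicate 1 the lowest library and U87MG-control replicate 2 the highest. The log2 fold change was -0.15 (SE 0.12, 95% interval -0.42 to 0.12, edgeR adjusted p 0.460).

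MT1X, which a zinc load is known to induce strongly in many cells, had 117.5, 131.7 and 128.0 counts in U87MG-control and 175.9, 172.0 and 207.5 in U87MG-LMO2. The levels were 10.2, 9.64 and 9.69 CPM against 10.7, 11.7 and 12.5 CPM. The groups did not overlap, but U87MG-LMO2 replicate 1 lay only just above U87MG-control replicate 1. The log2 fold change was 0.25 (SE 0.13, 95% interval -0.06 to 0.55, edgeR adjusted p 0.285).

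MT1F was the lowest member that could be tested, with 13.72, 8.98 and 15.04 counts in U87MG-control and 25.9, 22.2 and 21.6 in U87MG-LMO2. These were 1.21, 0.657 and 1.14 CPM against 1.586, 1.4997 and 1.326 CPM. The groups did not overlap, and U87MG-control replicate 2 was the lowest. The log2 fold change was the highest of the 5, 0.56, but so was its error (SE 0.30, 95% interval -0.12 to 1.24, edgeR adjusted p 0.280).

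MT1M had 44.6, 61.0 and 76.7 counts in U87MG-control and 67.4, 81.4 and 77.3 in U87MG-LMO2. The levels of 3.90, 4.45 and 5.83 CPM and of 4.09, 5.52 and 4.64 CPM overlapped, with both the lowest and the highest library in U87MG-control. Its log2 fold change was 0.00068 (SE 0.22, 95% interval -0.49 to 0.49, edgeR adjusted p 0.999), and the sign turned under 6 of the 16 alternatives.

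**Figure D3:**
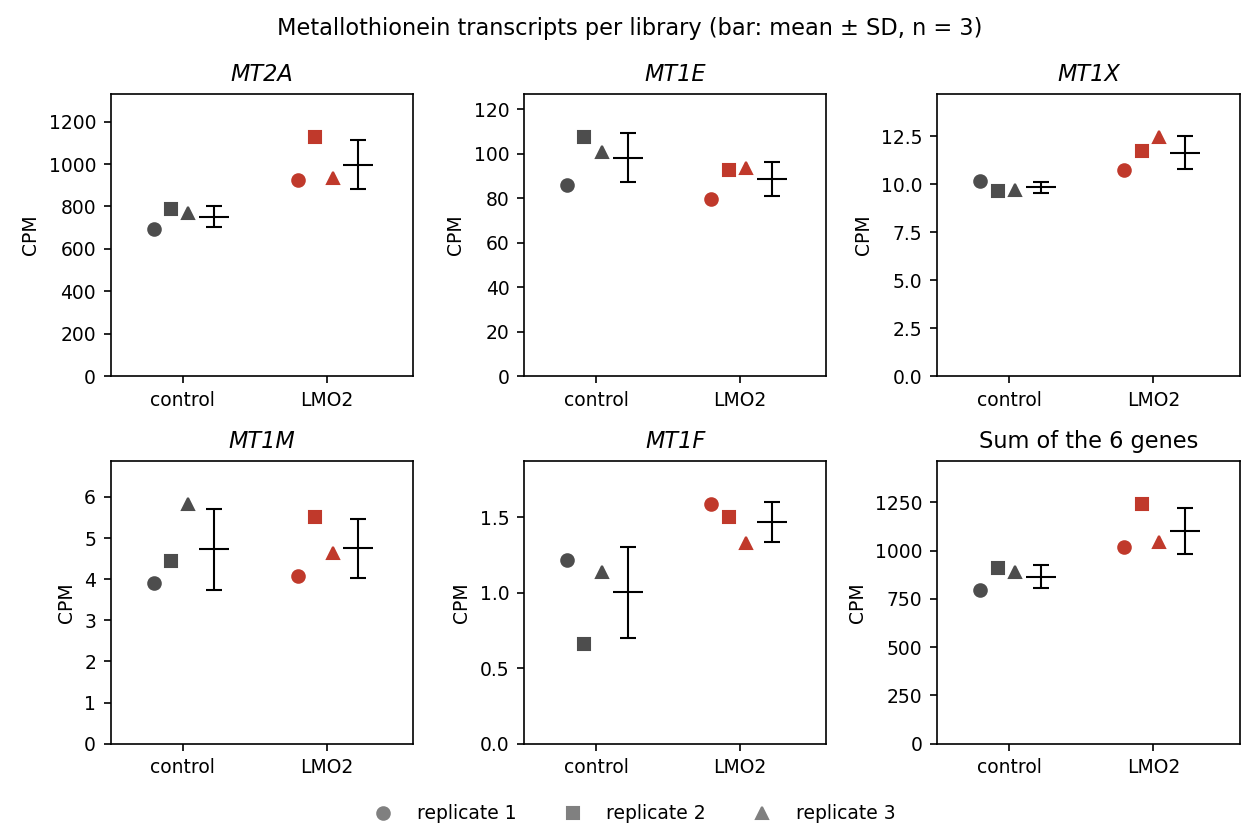
CPM of 5 metallothionein genes and of the sum of the 6 in each library (y axes start at 0; symbols give the replicate number and bars the mean ± SD, n = 3). The U87MG-LMO2 points of MT2A, MT1X, MT1F and the sum all lie above the control points, whereas those of MT1E and MT1M overlap them.

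Because related transcripts can share reads, the counts of the 6 genes were also summed in each library. Of the 50-base stretches in their annotated transcripts, 17.4% of MT1G and 14.7% of MT1X also occurred in another of the 6 or in MT1A, MT1B, MT1H or MT1L, against 2.2% of MT2A and 0.4% of MT1E. How far the value of each gene depends on the division of reads was not tested. The sums over all 13 metallothionein genes and pseudogenes with a count were within 0.01 of a whole number in every library, while the sums over the 6 genes were 0.07 to 0.38 away from one. The 6 genes held 98.9% to 99.3% of the counts of the 13.

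The summed counts were 9177, 12478 and 11739 in U87MG-control and 16740, 18201 and 17364 in U87MG-LMO2. They amounted to between 0.0803% and 0.124% of each library. In CPM the sums were 796.1, 911.3 and 888.3 against 1021, 1241 and 1046, and the groups did not overlap. The log2 fold change of the sum was 0.35 (SE 0.11, 95% interval 0.10 to 0.60), a 1.27-fold difference, with an edgeR adjusted p of 0.0924 that did not pass the threshold. An exact 2-sided permutation test of log2 CPM over the 20 assignments of libraries gave p = 0.1, the smallest it can give with 3 libraries against 3. The sum over all 13 differed by 0.35 on the log2 scale as well (edgeR adjusted p 0.0926). Without U87MG-LMO2 replicate 3 the sum over the 6 genes passed: the log2 fold change was 0.39 (edgeR adjusted p 0.0278).

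**Figure D4:**
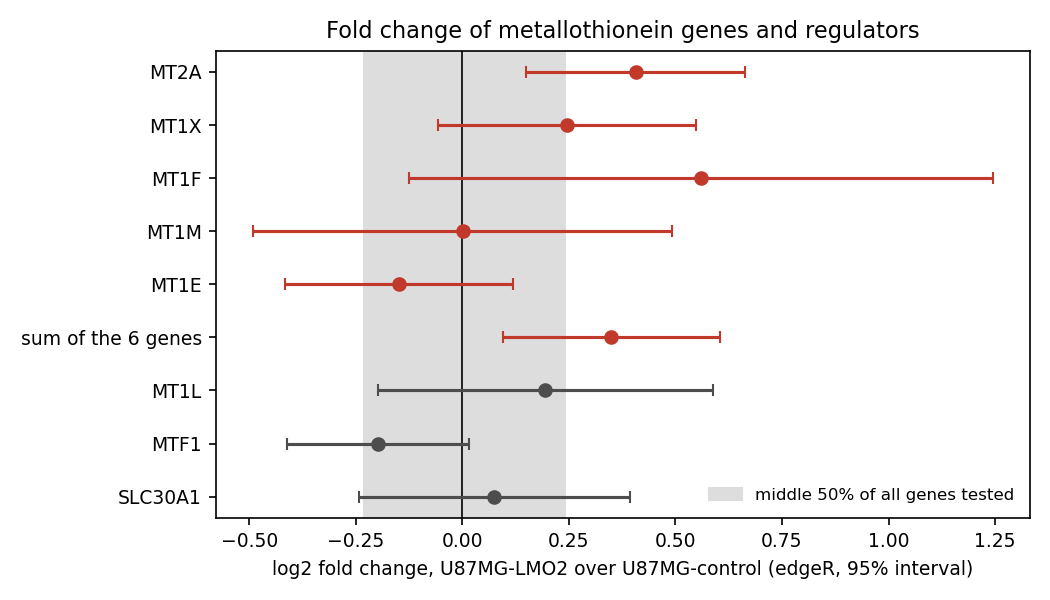
Log2 fold change of U87MG-LMO2 over U87MG-control (x axis, edgeR, points with 95% intervals) for the 5 tested members and their sum (red) and for MT1L, MTF1 and SLC30A1 (grey); the band spans the middle 50% of all genes tested. The intervals of MT2A (0.15 to 0.66) and of the sum (0.10 to 0.60) lie above 0, and the other 7 include it.

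The makeup of the sum was then compared, a comparison chosen after the values were seen. MT2A gave 87.3%, 86.6% and 86.8% of the summed counts in U87MG-control and 90.6%, 91.0% and 89.3% in U87MG-LMO2. The means were 86.9 ± 0.359% and 90.3 ± 0.908% (SD, n = 3), a difference of 3.43 percentage points that exceeded the spread between replicates. MT1E took up most of the other counts, with 10.8%, 11.8% and 11.3% in U87MG-control and 7.80%, 7.45% and 8.95% in U87MG-LMO2. Its means were 11.3 ± 0.500% and 8.07 ± 0.786% (SD, n = 3), and the groups did not overlap. The exact 2-sided permutation p of each share was 0.1, the smallest possible. Both are shares of the same sum, so the lower share of MT1E is not a separate result from the higher share of MT2A. The 95% Wilson intervals of the single shares reached at most 0.682 percentage points to either side, for counting error only.

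The ratio of MT2A to MT1E counts, which does not depend on library size, was 8.07, 7.33 and 7.65 in U87MG-control and 11.6, 12.2 and 9.98 in U87MG-LMO2. The means were 7.68 ± 0.372 and 11.3 ± 1.16 (SD, n = 3), with no overlap and the smallest possible exact permutation p of 0.1. MT2A and MT1E make up most of the sum, so the ratio is not a separate result from their shares. The share of MT1M was lower in every U87MG-LMO2 library than in every control, at 0.432 ± 0.0253% against 0.543 ± 0.0961% (SD, n = 3, exact permutation p = 0.1). A gene that does not change loses share when MT2A is higher. The CPM of MT1M overlapped between the groups, with a log2 fold change of 0.00068. The shares of MT1X and MT1F overlapped between the groups.

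**Figure D5:**
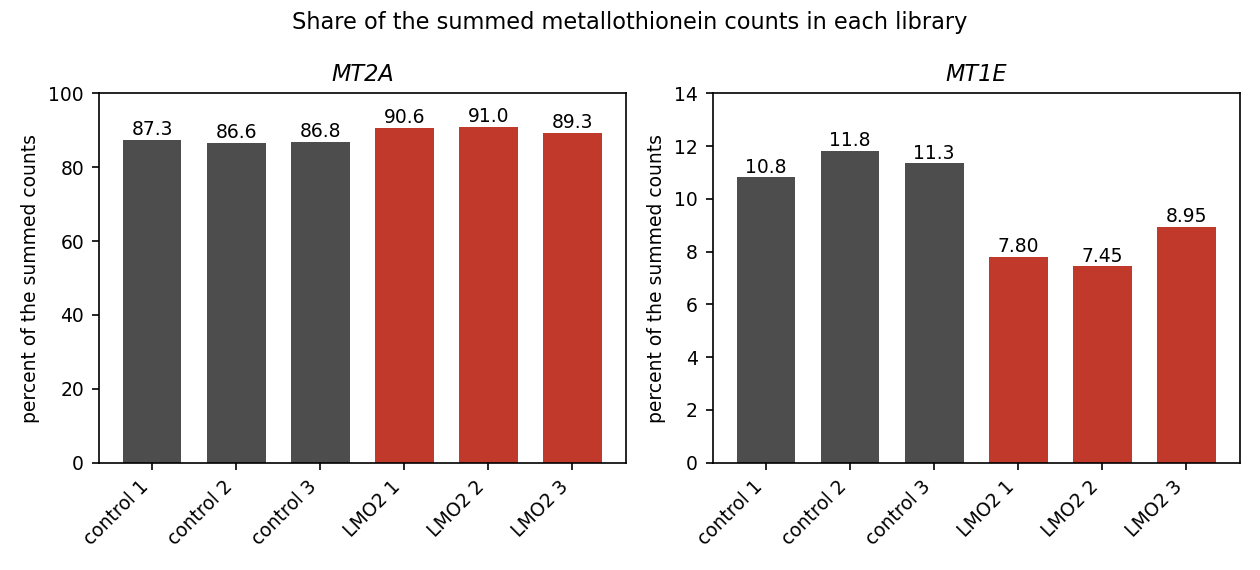
Percent of the summed counts of the 6 metallothionein genes that belong to MT2A (left) and to MT1E (right) in each library; bars start at 0, and the axes differ. MT2A holds 86.6% to 87.3% in U87MG-control and 89.3% to 91.0% in U87MG-LMO2, and MT1E 10.8% to 11.8% and 7.45% to 8.95%.

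The other metallothioneins, the metal sensor and the transporters were read from the same edgeR test. Of 15 other metallothionein genes and pseudogenes, 7 had a count and 1, MT1L (4500), could be tested. MT1L had 7.98, 6.21 and 6.28 CPM in U87MG-control and 7.26, 8.79 and 7.35 CPM in U87MG-LMO2, which overlapped (log2 fold change 0.19, edgeR adjusted p 0.513). MTF1 (4520), the zinc-sensing activator of these genes, had 53.7, 52.0 and 50.2 CPM in U87MG-control and 46.9, 43.6 and 45.3 CPM in U87MG-LMO2. It was lower in every U87MG-LMO2 library, with a log2 fold change of -0.20 (SE 0.094, edgeR adjusted p 0.226) that did not pass the threshold.

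Of the zinc exporters, 7 were tested and 0 were called, with a median log2 fold change of 0.05. At the share of 7.48% called among all genes, 0 of 7 says little about the exporters. SLC30A1 (7779), the plasma membrane exporter that MTF1 is known to activate together with the metallothioneins, had 14.5, 16.5 and 15.5 CPM in U87MG-control and 15.2, 18.9 and 14.9 CPM in U87MG-LMO2. Its groups overlapped (log2 fold change 0.08, 95% interval -0.24 to 0.39, edgeR adjusted p 0.767). The exporters with the largest differences were SLC30A7 (148867), at 0.21 (edgeR adjusted p 0.253), and SLC30A8 (169026), at -0.14 (0.766).

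Of 12 zinc importers tested, 2 were called higher and 0 lower, a share of 16.7% beside 7.48% of all genes, and their median log2 fold change was 0.19. SLC39A7 (7922), which releases zinc from the endoplasmic reticulum, had 127.3, 114.2 and 115.7 CPM in U87MG-control and 153.4, 164.1 and 159.3 CPM in U87MG-LMO2 (log2 fold change 0.42, SE 0.094, edgeR adjusted p 0.0355). SLC39A3 (29985) had 41.8, 48.1 and 46.3 CPM against 57.3, 62.7 and 68.1 CPM (0.47, SE 0.11, edgeR adjusted p 0.0393). Both lost the call in 5 of the 6 refits lacking 1 library, where the edgeR adjusted p reached 0.160 and 0.147. Calls over all genes also fell in these 5 refits, from 760 higher and 443 lower to between 102 and 579 higher and between 42 and 304 lower. A call lost there, for these or for genes below, is thus not particular to the gene. The fit without U87MG-LMO2 replicate 3, which called 1307 and 1102 of all genes, kept both importers. The GC-content correction gave them adjusted p values of 0.0921 and 0.0811. Without respect to the test, 6 of the 12 importers were higher in every U87MG-LMO2 library than in every control and 1 was lower, beside 17.5% and 16.6% of all genes. The summed level of the importers was 802.2 to 827.6 CPM in U87MG-control and 923.7 to 1094 CPM in U87MG-LMO2, and that of the exporters, 168.9 to 174.2 against 168.3 to 191.3 CPM, overlapped.

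Of 13 copper-handling genes tested, 0 were higher and 1 was lower, a share of 7.69% that is close to the 7.48% of all genes, with a median log2 fold change of -0.05. The gene called was SOD1 (6647), the copper- and zinc-binding superoxide dismutase, with 215.1, 197.8 and 218.3 CPM in U87MG-control and 157.6, 164.1 and 154.8 CPM in U87MG-LMO2 (log2 fold change -0.41, SE 0.092, edgeR adjusted p 0.0361). Of 8 iron-handling genes tested, 2 were higher and 0 lower (beside 4.72% and 2.75% of all genes), with a median of 0.11. FTL (2512), the ferritin light chain, rose from 1864 ± 199 to 2550 ± 163 CPM (SD, n = 3; log2 fold change 0.45, SE 0.11, edgeR adjusted p 0.0443). STEAP3 (55240), an endosomal ferric reductase, rose from 209.9 ± 3.56 to 300.4 ± 52.6 CPM (SD, n = 3; 0.52, SE 0.13, edgeR adjusted p 0.0499). SOD1 and FTL kept their calls in 1 of the 6 refits lacking 1 library and STEAP3 in 2 of the 6, the fit without U87MG-LMO2 replicate 3 being among them for each. Their highest adjusted p values were 0.167, 0.191 and 0.167. After the GC-content correction FTL (0.114) and STEAP3 (0.0921) were no longer called.

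Targets of glucocorticoids and genes of the oxidant and heavy-metal stress response were read from the same test. Of 12 listed genes, the glucocorticoid receptor and known targets of it, 10 were tested, 2 were higher and 1 was lower (30.0%, beside 7.48% of all genes), with a median log2 fold change of -0.27. The groups did not overlap for 2 genes that were higher and 5 that were lower, beside 17.5% and 16.6% of all genes. DUSP1 (1843), a MAP kinase phosphatase that growth factors and stress also induce, had 15.8, 20.9 and 17.3 CPM in U87MG-control and 47.4, 67.1 and 53.3 CPM in U87MG-LMO2 (log2 fold change 1.63, SE 0.16, edgeR adjusted p 0.00293). SGK1 (6446), a serum- and glucocorticoid-regulated kinase, rose from 14.03 ± 1.76 to 25.5 ± 4.71 CPM (SD, n = 3; 0.86, SE 0.17, edgeR adjusted p 0.0227). Replicate 2 was the highest U87MG-LMO2 library for both genes, whereas for GLUL and CEBPD of the same list replicate 3 was. How many of all genes had replicate 2 highest was not measured. GLUL (2752), glutamine synthetase, fell from 36.3 ± 1.59 to 25.6 ± 2.58 CPM (SD, n = 3; -0.50, SE 0.12, edgeR adjusted p 0.0391). The targets TSC22D3 (log2 fold change -0.62, edgeR adjusted p 0.0508), KLF9 (-0.97, 0.122), ERRFI1 (-0.98, 0.0577) and MAOA (-0.65, 0.138) did not pass, and NR3C1, the receptor, was at -0.04 (0.824). The remaining targets tested, CEBPD (log2 fold change 0.38) and PER1 (-0.009), did not pass either, and the groups overlapped for both. The uncalled targets thus did not all fall. SGK1 kept its call in 2 of the 6 refits lacking 1 library and GLUL in 1, which the GC-content correction also removed (0.0897), while DUSP1 kept it in all 6.

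Of 13 genes of the oxidant and heavy-metal stress response, 0 were higher and 6 were lower (46.2%, beside 7.48% of all genes called in either direction and 2.75% called lower). The 6 were all heat-shock chaperones or their partners, HSPA1A (3303), HSPA1B (3304), HSPA6 (3310), DNAJB1 (3337), BAG3 (9531) and HSPH1 (10808), with log2 fold changes from -2.89 to -0.54. HSPA1B, an inducible HSP70 gene whose reads the counting could have split with its near-identical copy HSPA1A, fell from 342.9 ± 73.3 to 106.3 ± 21.5 CPM (SD, n = 3; log2 fold change -1.69, SE 0.19, edgeR adjusted p 0.00413). The 7 oxidant-response genes of the list had log2 fold changes from 0.15 to 0.99 and none passed. HMOX1 (3162), heme oxygenase, had 137.5, 225.0 and 214.6 CPM in U87MG-control and 367.4, 530.3 and 248.7 CPM in U87MG-LMO2, with no overlap (log2 fold change 0.99, SE 0.27, edgeR adjusted p 0.0644). For HMOX1, replicate 2 was the highest and replicate 3 the lowest U87MG-LMO2 library. The median over the list was 0.15. The heat-shock calls of HSPA1B, HSPA6 and DNAJB1 held in all 6 refits lacking 1 library, and those of HSPA1A, BAG3 and HSPH1 in 3, 2 and 4.

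Among the 5 nearest protein-coding genes on each side of the cluster, 6 were tested, 1 was higher and 0 were lower (16.7% of few genes, beside 7.48% of all genes), with a median log2 fold change of 0.00. The gene called was NLRC5 (84166), an activator of MHC class I genes and the farthest of the 10 on its side, which rose from 57.7 ± 4.86 to 96.8 ± 10.4 CPM (SD, n = 3; log2 fold change 0.74, SE 0.12, edgeR adjusted p 0.0114). The call held in 2 of the 6 refits lacking 1 library. The genes next to the cluster, BBS2 (583) before it and NUP93 (9688) after it, were at 0.13 (edgeR adjusted p 0.677) and -0.12 (0.425). OGFOD1 (55239) was at 0.15 (0.452), NUDT21 (11051) at -0.15 (0.524) and HERPUD1 (9709) at -0.12 (0.516). GNAO1, SLC12A3 and CETP did not pass the filter on low counts.

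The genes whose pattern over the 6 libraries was most like that of the metallothionein sum were taken from 15221 genes with a mean of at least 1 CPM, by the root mean square difference of centred log2 CPM. They were LUZP2 (338645), SH3RF1 (57630), CDR2-DT (440346), PARVA (55742) and MFSD1 (64747), with differences of 0.020, 0.031, 0.033, 0.037 and 0.040, against a median of 0.30 over all candidates. PARVA, a focal adhesion protein, had 123.4, 138.8 and 137.0 CPM in U87MG-control and 166.7, 186.8 and 160.1 CPM in U87MG-LMO2. LUZP2 was at only 1.30 to 2.04 CPM, where counting noise is large. None of the 5 was called, and 6 points do not fix a pattern among so many candidates.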

How the data were processed

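Total RNA of 6 U87MG samples was sequenced by BGI. The authors deposited, for each library, expected counts (estimated reads per gene, not normalized and not always whole) and FPKM values (scaled to transcript length and mapped reads). The submitters' processing notes name Bowtie2, BWA and GRCh38.p12 without saying what each was used for. The counting program is not given in the sources used here. The authors' comparison table also holds fold changes, directions and probabilities, which were not used. The table of U87MG-LMO2 replicate 3 had 3 damaged lines, and 134 of 27259 genes, whose group mean it did not give (relative tolerance 1e-05, 0.01 for missing values), were left out of all tests. None of the 6 metallothionein genes was among them, whereas GFAP and FKBP5 were and have no value here. Symbols came from RefSeq for 89.6% of genes.

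Counts were rounded and tested with edgeR 4.0.16 in R 4.3.3 (filterByExpr, TMM, glmQLFit and glmQLFTest, 2-sided, Benjamini-Hochberg adjustment over 16092 genes, called at an adjusted p under 0.05). SE and 95% intervals of fold changes were derived from its F statistic. Shares, ratios and sums were compared by exact permutation. Alternatives were DESeq2 1.42.0, upper-quartile scaling, other count filters, limma 3.58.1 on log2(FPKM + 1) and log2(FPKM + 0.1), a replicate block, glmTreat against a 2-fold change, each library left out in turn and, added after seeing the data, GC-content and length corrections and a sum over every metallothionein. The fits were tested on simulated data. The genes named were all members, LMO2, other metallothioneins with a count, MTF1, SLC30A1, the called members of each pathway list (or the 2 with the largest change), the neighbours of the cluster and the 5 genes most like the sum. TSC22D3, KLF9, ERRFI1, MAOA, CEBPD, PER1, NR3C1 and HMOX1 were named after their values were seen. The members and lists were chosen with earlier results of these data known.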

Additional observations from a re-analysis of the deposited data

How the results depend on the processing

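MT2A and the summed level kept their direction in all alternatives run, with log2 fold changes of 0.31 to 0.46 and of 0.26 to 0.41. Adjusted p values were 0.0149 to 0.198 for MT2A and 0.0278 to 0.247 for the sum, leaving aside the test against a 2-fold change. The number of the 6 genes called was 0, but 1 (MT2A) with DESeq2, and 0 to 1 when a library was left out. The sum passed without U87MG-LMO2 replicate 3 (0.39) and in no other alternative, and its log2 fold change ranged from 0.26 to 0.41 over the refits lacking 1 library. MT2A was at 0.33 after the GC-content correction (adjusted p 0.130). The sign of MT1M, near 0, turned with limma on log2(FPKM + 1) (-0.013) and log2(FPKM + 0.1) (-0.014), without U87MG-control replicate 1 (-0.12) or 2 (-0.04), without U87MG-LMO2 replicate 2 (-0.12) and with GC content corrected (-0.21), so that its range over the refits lacking 1 library was -0.12 to 0.18, and the cause was not tested. MT1E, MT1X and MT1F kept their direction and were not called in any alternative that tested them. MT1F could not be tested with at least 10 counts in every library.

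The pathway lists held 15 calls, 4 (without U87MG-control replicate 2 or 3) to 22 (without U87MG-LMO2 replicate 3) when a library was left out and 0 in the test against a 2-fold change. Over all genes, 760 were called higher and 443 lower, 1006 and 691 with DESeq2, 387 and 189 with the replicate block, 102 and 42 without U87MG-control replicate 3, 1307 and 1102 without U87MG-LMO2 replicate 3, and 14 and 1 in the test against a 2-fold change. Same-numbered libraries did not deviate together (correlations over genes -0.117, -0.003 and -0.041). Libraries with different numbers were not compared in this way, so whether same-numbered libraries shared a culture or batch was not settled. With the replicate block the lists held 8 calls, the members 0, and MT2A a log2 fold change of 0.40 (adjusted p 0.0998). With 3 libraries a group, an exact test cannot go below 0.1, and few counts limit MT1F, MT1M and MT1G.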
